A study of Danio rerio with 6 samples.

Results

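The gamma crystallin genes of zebrafish were followed in whole larvae 5 days after fertilisation, in pdcd7 mutants and wild-type siblings, with 3 libraries per genotype. Members were the genes whose Ensembl symbol begins with crygm, crygn or crygs, and 41 of the 32520 genes in the count tables qualified. They comprised 21 copies of crygm2d, 14 other crygm genes, 2 crygn genes and 4 crygs genes. The mutants carry allele pd1215 of pdcd7, which encodes a protein of the minor spliceosome. The tag cx20 stands in the sample titles of mutants and siblings alike, and what it stands for is not stated. All libraries were made from whole larvae, 40 of which are named in the extraction protocol, and carry the same batch number. Nothing in the labels says that replicates were separate clutches, so p-values measure the spread between these libraries, which may be technical.

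Crystallins are the soluble proteins that fill the fibre cells of the lens and give it its refractive power. Gamma crystallins are small single-chain members of the beta and gamma superfamily, built from Greek key folds, and they occupy the densest part of the lens. The gamma M genes are a branch expanded in fish, named for a high methionine content. The gamma N genes lie between the beta and gamma branches in gene structure, and gamma S crystallin is a major lens protein of mammals.

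Library totals ranged from 75122088 to 87110177 counts. Levels are CPM, the counts of a gene per 1000000 counts of library size, with that size multiplied by its TMM scaling factor. These factors were 1.02 to 1.03 in mutants and 0.974 to 0.977 in siblings. A count of 0 allows up to 3 counts, or 0.0334 to 0.0410 CPM, by counting error alone. The transcript of PDCD7 itself measured 19.6 to 21.8 CPM in mutants and 14.8 to 15.3 CPM in siblings, so it rose by log2 0.46 ± 0.04 SE (edgeR adjusted p = 1.73e-06). Marker genes of muscle, liver, skin, neurons, blood and retina were all detected. Of all tested genes 34.1% were called lower and 34.5% higher (edgeR adjusted p under 0.05). The 3 liver markers and 4 neuronal markers were called lower, with log2 changes of -1.17 to -0.82 and -0.58 to -0.12. The retinal photoreceptor markers, summed over 10 genes, were also lower, at 1752 to 1848 CPM in mutants and 5053 to 5543 CPM in siblings, with 8 of the 10 called lower and 1 higher. Of 4 retinal pigment epithelium genes 3 were called higher, as were 2 of 3 skin markers and the cornea marker TGFBI. Of 5 genes of retinal interneurons and ganglion cells 1 was called lower and 2 higher. In muscle 1 of 3 markers and in blood 1 of 2 were called lower. The part of these tissues in the lens result was not tested.

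Transcripts of the family were lower in mutants almost throughout. Summed over the 41 genes, mutant libraries held 241, 318 and 205 CPM, and sibling libraries held 2869, 3100 and 3787 CPM. The highest mutant library thus lay far below the lowest sibling library, and the ratio of the group means was 12.8. In RNA of a whole larva, fewer lens cells and less RNA per lens cell cannot be told apart. After removal of low counts 35 members were tested, and 34 were called lower and 1 higher by edgeR's quasi-likelihood test (Benjamini-Hochberg adjusted p under 0.05). Of all 24248 tested genes 68.6% were called, 34.1% lower and 34.5% higher, while 5.25% were called lower by at least 2-fold and 0.569% by at least 8-fold. Of the members 28 were lower by at least 8-fold (a log2 change of -3 or below). The median log2 change of the tested members was -3.61, beside 0.01 over all tested genes. The tested members include 7 that passed the filter on low counts through the siblings alone, with fewer than 3 mutant libraries past it. The filter thus favoured a lower mutant level for them. They are counted in the 34 calls and in the median, and crygm1, crygm2e, crygm2f and crygm7 also in the 28. The gene called higher, crygm4, passed the filter through the mutants, with 1 sibling library past it, so the filter favoured a higher mutant level there.

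**Figure D1:**
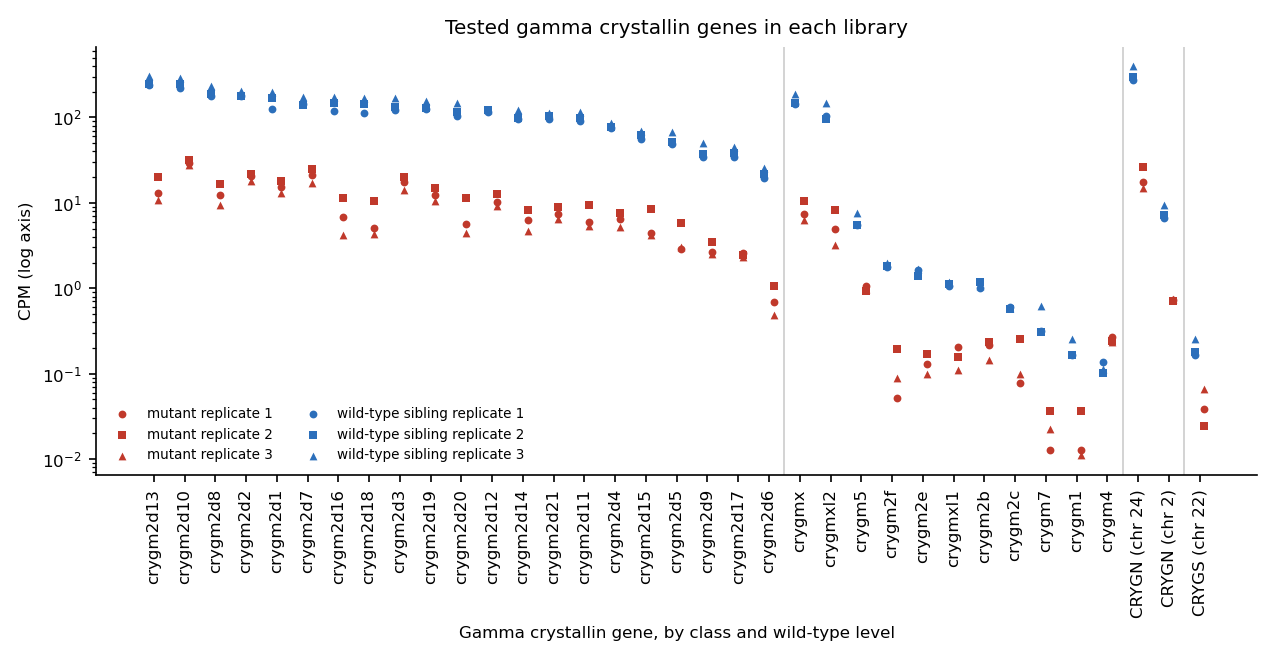
Level of each of the 35 tested gamma crystallin genes in CPM on a log axis, with 1 point per library, mutants in red and wild-type siblings in blue. Within each class the genes run from high to low sibling level. In 34 genes every mutant point lies below every sibling point, and in crygm4 every mutant point lies above.

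The crygm2d genes make up most of the family. These 21 copies encode gamma M crystallins, all on the minus strand of chromosome 9, between 22091161 and 22339582 (GRCz11). Their summed level was 209, 269 and 178 CPM in mutants and 2330, 2542 and 3033 CPM in siblings, 12.1-fold lower in mutants. All 21 copies passed the filter in both genotypes, and all 21 were called lower, with log2 changes from -4.90 to -2.86. No mutant library reached a sibling library in any copy. For all tested genes, the mutant libraries lay below all sibling libraries in 35.8%. With robust shrinkage of the dispersions, which lets the more variable genes keep their own spread, the adjusted p-values of the 21 copies ran from 9.24e-07 to 0.000898.

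The copy with the most counts was crygm2d10 (chromosome 9, 22309838 to 22310919). It measured 29.1, 32.1 and 28.1 CPM in mutants and 221, 244 and 288 CPM in siblings. Its log2 change was -3.08 ± 0.09 (SE, adjusted p = 3.31e-11 in edgeR). The next, crygm2d13 (22091161 to 22092089), stood at 13.1, 20.0 and 10.9 CPM against 237, 246 and 303 CPM. Its log2 change was -4.16 ± 0.17 (SE, adjusted p = 8.35e-10 in edgeR). Of the crygm2d sum, crygm2d10 held 13.9% ± 1.93 in mutants and 9.53% ± 0.0615 in siblings, and crygm2d13 held 6.61% ± 0.721 and 9.95% ± 0.242 (SD, n = 3). Per kilobase of exon the order in siblings was crygm2d13 first at 408 CPM per kb, crygm2d8 at 312 and crygm2d10 at 257, and in mutants crygm2d10 came first at 30.4 CPM per kb and crygm2d13 followed at 22.8. The sibling values of crygm2d8 were 177, 190.4 and 231 CPM and its mutant values 12.5, 16.5 and 9.49 CPM (log2 -3.97 ± 0.15 SE, adjusted p = 4.53e-10 in edgeR).

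The fitted falls covered a wide range, and the spread among copies was not tested. The largest fall was that of crygm2d6 (22181416 to 22182396), with 0.683, 1.07 and 0.489 CPM in mutants and 19.5, 21.7 and 25.4 CPM in siblings (log2 -4.90 ± 0.17 SE, 29.7-fold). The smallest was that of crygm2d7 (22271056 to 22272181), with 21.3, 24.7 and 17.2 CPM in mutants and 144, 138 and 175 CPM in siblings (log2 -2.86 ± 0.11 SE, 7.23-fold). The level of crygm2d6 relative to crygm2d7 was therefore 0.0321, 0.0435 and 0.0285 in the mutant libraries and 0.136, 0.157 and 0.146 in the siblings, with no overlap. This pair was chosen for its extremes, so the difference is a description. The other 16 copies outside the 5 named so far fell between 8.15- and 21.2-fold, from sibling means of 39.1 to 187 CPM to mutant means of 2.46 to 19.9 CPM.

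Copies at the far end of the array tended to keep a larger share of their sibling level. Across the 21 copies, which share libraries and depth, the log2 change rose with position at a Spearman rho of 0.66 (Pearson r 0.59). The mutant level per kilobase had a rho of 0.27 with position, and the sibling level per kilobase a rho of 0.15. The first 15 copies by start position kept 3.37% to 9.19% of the sibling level in mutants, and the last 6 copies, from crygm2d7 to crygm2d1, kept 7.27% to 13.8%. That boundary was placed after the values were seen. Of the last 6, crygm2d21 fell most (log2 -3.79 ± 0.09 SE) and the others had log2 changes of -3.41 to -2.86. The relation was weaker with sibling level per kilobase (rho 0.32) and near 0 with exon length (rho 0.02). Without mutant replicate 2 the rho with position was 0.65. The order of levels per kilobase was much the same in both genotypes (rho 0.92).

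**Figure D2:**
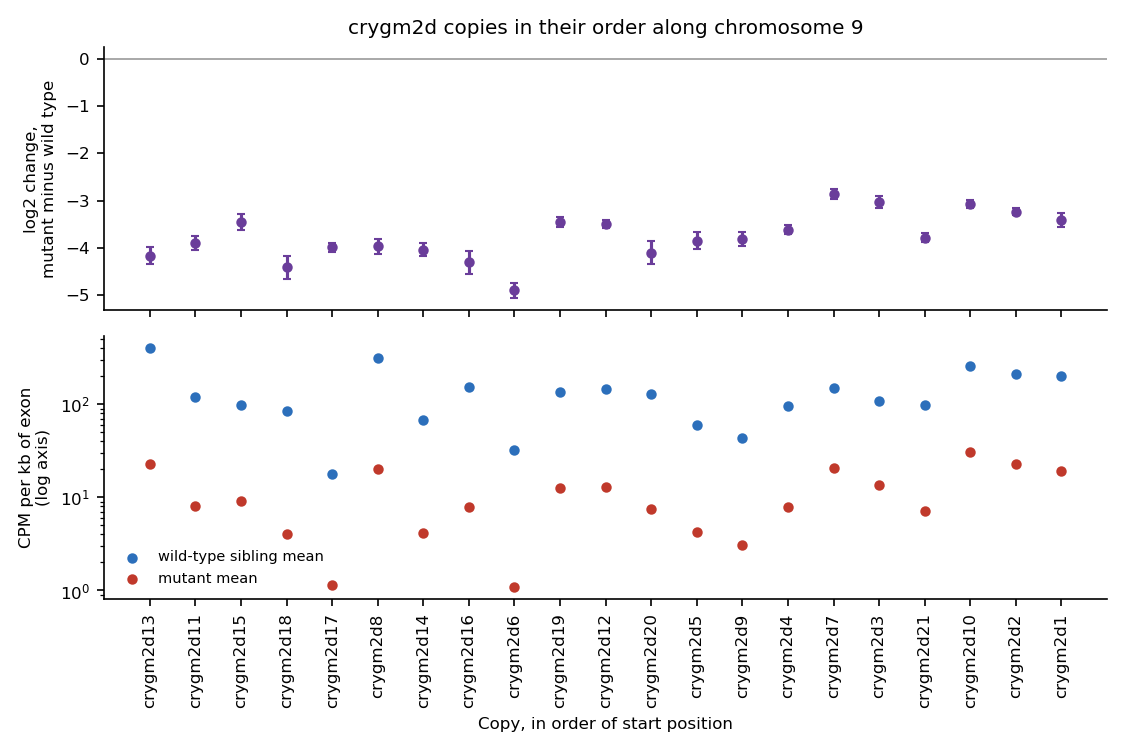
The 21 crygm2d copies in order of start position on chromosome 9. The upper panel shows the log2 change with its SE from edgeR, and the lower panel the group means in CPM per kilobase of exon on a log axis; the last 6 copies lie between -3.79 and -2.86, and crygm2d6 is lowest at -4.90.

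Near-identical copies can lose reads. The counts leave out read pairs with several alignments, so a copy's level depends on how much of its sequence is unique, which was not measured. Exons shared on the same strand also lose reads. The exons of crygm2d14 and crygm2d16 overlap by 113 bases, and crygm2f shares 238 of its 588 exon bases with crygm5. Summing the 21 copies into a single row before the fit gave a log2 change of -3.59, which does not depend on how counted reads were divided among copies.

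Mutant replicate 2 held more gamma crystallin transcript than the other mutant libraries. It was the highest mutant library for 29 of the 35 tested members and for 20 of the 21 crygm2d copies, and sibling replicate 3 was the highest sibling library for 31 and 20. The excess differed among copies, and the copies named for it were chosen after their values were seen. It held 2.28 times the mean of the other mutant libraries for crygm2d20, 2.27 times for crygm2d18 and 2.07 times for crygm2d16, but 1.12 times for crygm2d10, 1.13 times for crygm2d2 and 1.01 times for crygm2d17. Copies with a larger fall in replicates 1 and 3 had the larger excess (Spearman rho -0.80 across 21 copies). The mutant replicates 1 and 3 enter both of those measures, so they are not independent. Without mutant replicate 2 the log2 change was -4.92 for crygm2d18, -4.62 for crygm2d20 and -3.14 for crygm2d10. Members of at least 5 CPM in siblings had a wider spread than other genes between libraries of 1 genotype, with a median coefficient of variation of 23.2% in mutants and 13.9% in siblings over 26 members. In 9603 other genes whose mutant level was in the same range the medians were 3.84% and 3.73%. Other crystallins shared the wide spread. For the gamma crystallin sum the coefficient of variation was 22.6% in mutants and 14.7% in siblings. It was 49.2% and 25.6% for the beta crystallin sum and 26.0% and 18.7% for the alpha crystallin sum. The summed list of lens fibre cell genes, of which SPARC was the most abundant, had 1.15% and 6.73%.

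**Figure D3:**
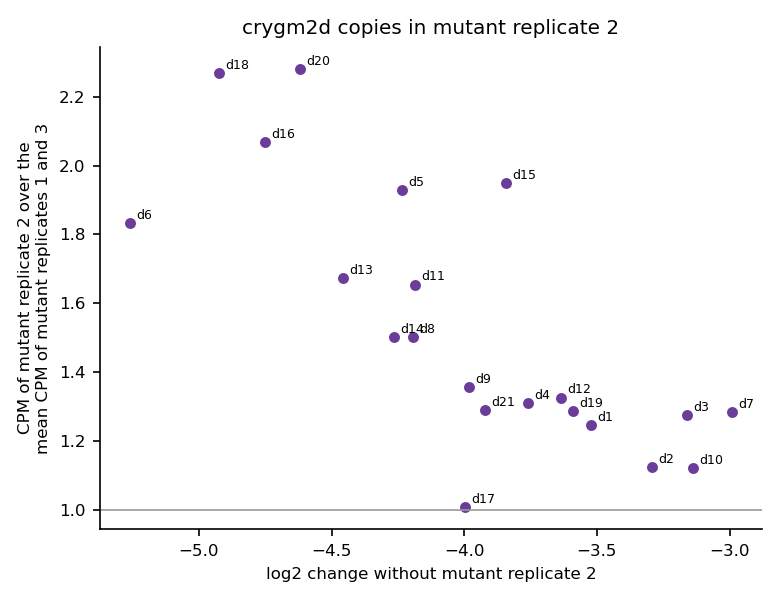
For each crygm2d copy, the CPM of mutant replicate 2 divided by the mean of mutant replicates 1 and 3, against the log2 change fitted without mutant replicate 2. Labels give the copy number; the ratio runs from 1.01 for d17 to 2.28 for d20, and both axes use mutant replicates 1 and 3.

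The other crygm genes split into a pair of abundant genes on chromosome 12 and a set of low ones. The gene crygmx (chromosome 12, 30838167 to 30841679), a gamma M crystallin gene outside the array, measured 7.33, 10.6 and 6.34 CPM in mutants and 145, 147 and 187 CPM in siblings. Its log2 change was -4.30 ± 0.15 (SE, adjusted p = 1.87e-10 in edgeR), a 19.7-fold fall. Its neighbour crygmxl2 (30842677 to 30846055) measured 4.92, 8.14 and 3.21 CPM against 103, 95.1 and 146 CPM (log2 -4.41 ± 0.24 SE, adjusted p = 8.22e-09 in edgeR). With robust shrinkage in edgeR the adjusted p was 0.000118 for crygmx and 0.000643 for crygmxl2. Among the 21 crygm2d copies, crygm2d6 and crygm2d18 had fitted log2 changes (-4.90 and -4.41) at or below both.

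On chromosome 9, crygm5 (22345047 to 22352280) had the highest sibling level per length of the low genes, 4.77 CPM per kb. It measured 1.07, 0.940 and 0.979 CPM in mutants and 5.55, 5.53 and 7.65 CPM in siblings. Its log2 change was -2.65 ± 0.15 (SE, adjusted p = 9.24e-09 in edgeR), and its mutant libraries were close to each other. A further 7 genes of this set, crygm1, crygm2b, crygm2c, crygm2e, crygm2f, crygm7 and crygmxl1, were called lower from sibling means of 0.195 to 1.85 CPM. Their log2 changes ran from -4.03 to -2.01, and 6 of the 7 passed the filter through the siblings alone. Of these, crygm7 rested on 1, 3 and 2 counts in mutants beside 23, 24 and 49 in siblings. Without mutant replicate 2 the fold change moved by over 1.5 times for crygm1 (log2 from -3.19 to -3.87), crygm2c (from -2.01 to -2.69) and crygm2f (from -4.02 to -4.66), and these calls stood.

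The exception in direction was crygm4, which lies alone on chromosome 6 (72040 to 72996). It measured 0.270, 0.244 and 0.234 CPM in mutants and 0.137, 0.103 and 0.114 CPM in siblings, from 20 to 21 counts per mutant library and 8 to 10 per sibling library. The mutant libraries all lay above the siblings, as they did in 36.4% of all tested genes. Its log2 change was 1.07 ± 0.30 (SE, adjusted p = 0.00635 in edgeR). With DESeq2 the adjusted p was 0.0486, and a filter of 1 CPM left the gene untested.

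The members that were too low to test were crygm2a, crygm3, crygm6, crygs3, crygs4 and a crygs gene on chromosome 9. In mutants crygm2a had 1, 0 and 0 counts and in siblings 4, 10 and 5, and crygm3 had 1, 7 and 6 against 12, 8 and 19. The genotypes did not overlap for crygm2a and crygm3, though for crygm3 the nearest counts were 7 in a mutant and 8 in a sibling. Of all tested genes 35.8% had every mutant library below every sibling library. For crygm6 the counts were 0 in all mutants and 2, 0 and 0 in siblings, which is at the detection floor in both.

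Both crygn genes fell. In the files their exons form 4 and 5 separate blocks, against 2 to 4 in the other members. CRYGN on chromosome 24 (ENSDARG00000030411, 41305391 to 41312459) had the most counts of all members and a sibling level of 328 CPM per kb, second to crygm2d13. It measured 17.5, 26.4 and 14.8 CPM in mutants and 272, 296 and 396 CPM in siblings, a 16.4-fold fall. Its log2 change was -4.04 ± 0.19 (SE, adjusted p = 2.25e-09 in edgeR, 0.000370 with robust shrinkage). CRYGN on chromosome 2 (ENSDARG00000102129, 51783120 to 51815413) had a sibling level of 7.17 CPM per kb. It measured 0.721, 0.708 and 0.745 CPM against 6.60, 7.26 and 9.39 CPM. Its log2 change was -3.42 ± 0.15 (SE, adjusted p = 1.21e-09 in edgeR, 6.66e-10 with robust shrinkage). Its mutant libraries lay within 0.04 CPM of each other, and mutant replicate 2 was the lowest of them, whereas it was the highest for CRYGN on chromosome 24.

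The crygs genes were low in both genotypes at this age, and 3 of the 4 were too low to test. CRYGS on chromosome 22 (ENSDARG00000042992, 11710467 to 11714158) was the only tested gene of the 4, with mutant counts of 3, 2 and 6 and sibling counts of 12, 14 and 20. It was called lower (log2 -2.14 ± 0.44 SE, adjusted p = 0.000920 in edgeR), having passed the filter through the siblings alone. CRYGS on chromosome 9 (ENSDARG00000041171) had mutant counts of 0, 4 and 4 and sibling counts of 0, 1 and 2. The gene crygs4 had 3, 1 and 0 against 1, 0 and 8, and crygs3 had 3, 2 and 1 against 2, 0 and 1. For these last genes the genotypes overlapped, and no difference was detectable at this depth.

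Set beside each other, the crygm2d sum fell less than the sums of the other crygm and crygn genes. The summed log2 change was -3.59 for crygm2d, -4.20 for the other crygm genes and -4.02 for crygn, and crygmx and crygmxl2 supplied most of the second. CRYGN on chromosome 24 supplied most of the third, with a sibling mean of 321 CPM in a sum of 329 CPM. Gene by gene the order differed. The median log2 change of tested genes was -3.82 for crygm2d, -3.19 for the other crygm genes and -3.73 for crygn. The other crygm median includes crygm4 and 6 members that passed the filter through the siblings alone. The other crygm genes of chromosome 9, summed over 11 genes, went from 13.3 ± 1.72 CPM in siblings to 1.85 ± 0.246 CPM in mutants (SD, n = 3), 7.22-fold. The crygm2d genes held a larger share of the family's counts in mutants, at 86.5%, 84.8% and 86.8%, than in siblings, at 81.2%, 82.0% and 80.1%. The exact Clopper-Pearson 95% intervals of these shares spanned at most 0.985 percentage points and cover counting error only. The genotypes did not overlap in this share. The ratio of the crygm2d sum to the crygmx and crygmxl2 sum was 17.0, 14.3 and 18.6 in mutants and 9.40, 10.5 and 9.10 in siblings. These sums were given no p-value, and an exact two-sided permutation test of 3 against 3 libraries cannot go below 0.1.

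**Figure D4:**
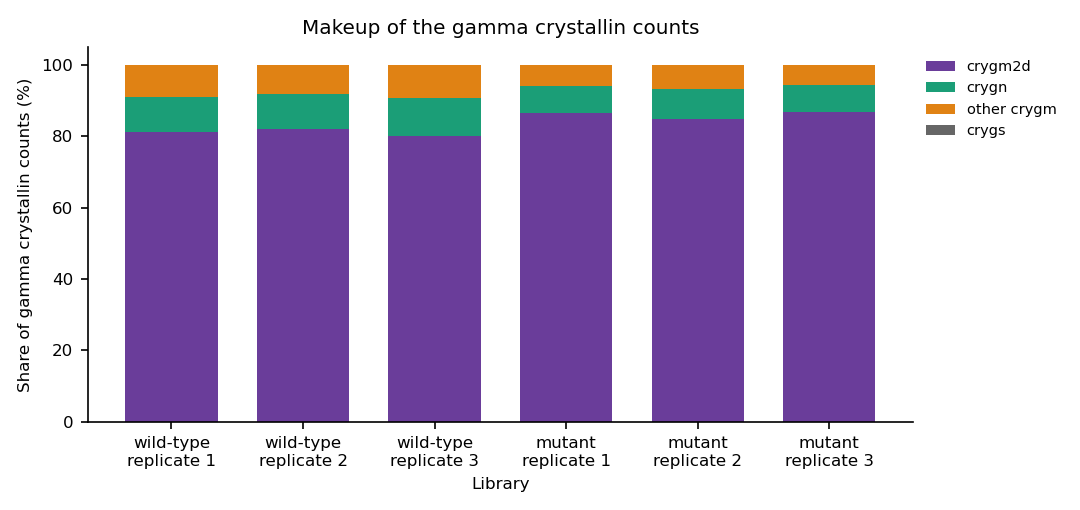
Share of all gamma crystallin counts held by each class, in percent, 1 bar per library. The crygm2d share is 80.1% to 82.0% in wild-type siblings and 84.8% to 86.8% in mutants; crygs is too small to be seen.

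On chromosome 9, 34 members lie within 373 kb, from 21993092 to 22366295. The block also holds 3 genes with a code for a symbol. Of these si:dkey-57a22.15 was called lower, with a log2 change of -4.25 ± 0.20 SE (edgeR adjusted p = 2.38e-09). The gene zgc:153846 had mutant counts of 1, 22 and 0 and sibling counts of 160, 179 and 202. It was called lower too, having passed the filter through the siblings alone, and its mutant mean of 0.0938 CPM was 0.00644 CPM without mutant replicate 2, under the detection floor. In the 500 kb on either side, 21 genes were tested, with 6 called lower and 9 higher and log2 changes between -0.58 and 0.98, where 34.1% and 34.5% of all tested genes were called.

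The remaining crystallins that were tested were called lower too. All 12 tested beta crystallin genes, which encode lens proteins of the same superfamily, were called lower, beside 34.1% of all tested genes, with a median log2 change of -4.67. The call of CRYBB3 (log2 -0.47, adjusted p = 0.0495 in edgeR) was lost with DESeq2, library size only and upper quartile scaling, and when any library but mutant replicate 3 was left out. Their sum was 56.0, 114 and 48.5 CPM in mutants and 1448, 1504 and 2244 CPM in siblings. The ratio of the gamma to the beta sum was 4.30, 2.79 and 4.23 in mutants and 1.98, 2.06 and 1.69 in siblings, with no overlap. The beta genes that fell most were crybb1l1 (log2 -5.83 ± 0.49 SE) and CRYBB1 (log2 -5.63 ± 0.51 SE), and without mutant replicate 2 their values were -7.61 and -7.45. Those with the highest CPM were crybb1l2 and CRYBA2 (ENSDARG00000041925), at log2 -4.92 ± 0.31 and -3.41 ± 0.13 SE, and crybb1l2 stood at -5.56 without mutant replicate 2. Of the 3 alpha crystallin genes 2 were tested. CRYAA, the lens chaperone, changed by log2 -6.20 ± 0.29 SE and by -7.56 without mutant replicate 2. CRYAB (ENSDARG00000101380) changed by log2 -0.63 ± 0.12 SE.

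In the list of lens fibre cell genes 19 of 27 were called lower and 4 higher, with a median log2 change of -2.16, where 34.1% and 34.5% of all tested genes were called. HSF4, counted in the 19 and in the median, passed the filter through the siblings alone and also stands in the list of lens regulators. Over the other settings 17 to 19 genes of the fibre cell list were called lower and 3 to 6 higher. MIP (ENSDARG00000013963), the fibre cell water channel, and CAPN3 (ENSDARG00000041864), a protease gene, fell most, at log2 -5.53 ± 0.31 and -5.32 ± 0.36 SE. Without mutant replicate 2 they stood at -6.44 and -6.38. The other MIP gene (ENSDARG00000037285) was called lower at log2 -3.96, and the other CAPN3 gene (ENSDARG00000043035) was not called, at log2 0.07. Genes of that list called higher included SPARC, a matrix protein gene, at log2 0.45 ± 0.03 SE, epha2a, an ephrin receptor gene, at 0.62 ± 0.06 and TMOD1, a cap of actin filaments, at 0.48 ± 0.07. The gene lim2.2 was also called higher, at log2 0.39. That call was lost with DESeq2 and on leaving out mutant replicate 1 or 2 or sibling replicate 2 or 3. CDH2, the neural cadherin, stood at -0.07 ± 0.03, a call that was lost in 8 settings and whose sign turned with library size only. RNA of whole larvae does not separate lens transcripts of the listed genes from those of other organs.

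**Figure D5:**
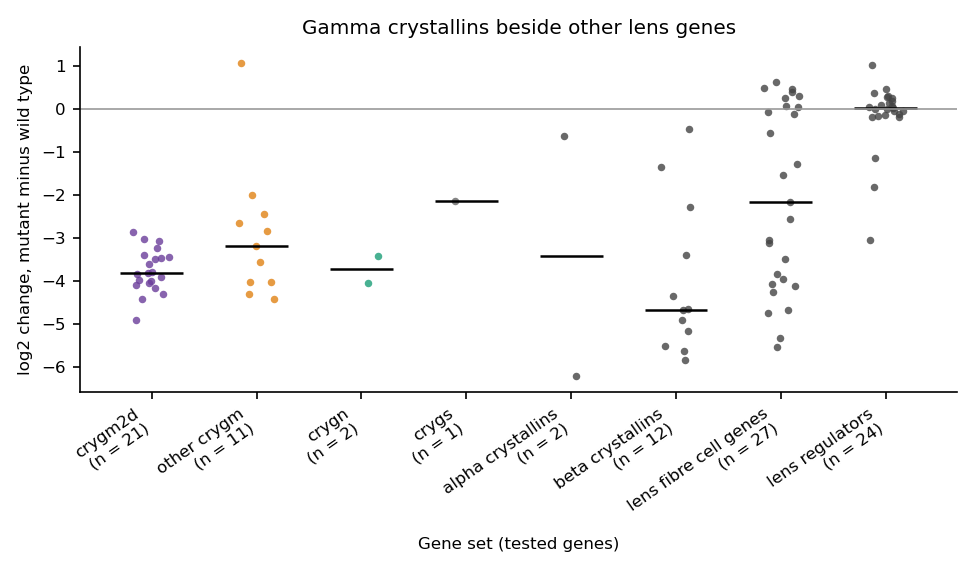
The log2 change of every tested gene of the gamma crystallin classes and of the other lens lists, 1 point per gene, with the median as a bar. The beta crystallins have a median of -4.67 and the crygm2d copies -3.82. The lens regulators have a median of 0.02 and run from -3.05 to 1.03.

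Among 24 regulators of lens development and crystallin transcription, 8 were called lower and 9 higher, with a median log2 change of 0.02. These counts are near the shares of all tested genes called, 34.1% lower and 34.5% higher. Many of these genes also act in the brain, the retina or other organs, and RNA of whole larvae does not separate those sources. HSF4, a heat shock factor that mouse lenses need for gamma crystallin expression, measured 0.0773, 0.146 and 0.122 CPM in mutants and 0.766, 0.744 and 1.40 CPM in siblings (log2 -3.05 ± 0.35 SE). It was called lower, having passed the filter through the siblings alone. The lens epithelium gene foxe3, a forkhead factor, measured 0.296, 0.293 and 0.245 against 0.848, 0.692 and 1.39 CPM (log2 -1.82 ± 0.28 SE, adjusted p = 9.36e-05 in edgeR). Neither gene overlapped between genotypes, and 35.8% of all tested genes had every mutant library below every sibling library. Of the other lens epithelium markers cdh1, the epithelial cadherin that skin also expresses, was called higher (log2 0.37 ± 0.04 SE). The third, pitx3, was called lower (log2 -0.18 ± 0.06 SE), a call lost in several settings. The summed level of that list was 125 to 131 CPM in mutants and 100.4 to 108 CPM in siblings. Most of that sum was cdh1, with means of 119 CPM in mutants and 92.0 CPM in siblings.

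PROX1, a homeodomain factor of fibre cell differentiation that is also used in liver, lymph vessels and neurons, was higher, at 113, 108 and 114 CPM against 55.5, 54.1 and 54.8 CPM (log2 1.03 ± 0.03 SE, adjusted p = 7.33e-11 in edgeR). MEIS1 and RARG, the other regulators with the highest CPM and the largest rise, stood at log2 0.18 ± 0.03 and 0.46 ± 0.09 SE. Neither MAF gene, of the family of factors that bind crystallin promoters, was called, at log2 -0.01 ± 0.04 SE (ENSDARG00000015890) and -0.04 ± 0.07 SE (ENSDARG00000076520), and both signs turned with library size only. SOX2 rose by log2 0.25 ± 0.05 SE. Of the SOX1 genes, whose mouse counterpart is needed for gamma crystallin expression, ENSDARG00000069866 stood at -0.16 ± 0.05 SE, a call lost with library size only. The other, ENSDARG00000008131, was not called at 0.03 ± 0.06 SE, and its sign turned without mutant replicate 1 or without sibling replicate 1. The master eye gene PAX6 had 1 copy called higher (ENSDARG00000045936, log2 0.14 ± 0.03 SE) and 1 not called (ENSDARG00000103379, 0.04 ± 0.03 SE) that was called higher with library size only and with upper quartile scaling. The call of pitx3 (log2 -0.18 ± 0.06 SE) was lost with upper quartile scaling, with library size only and on leaving out mutant replicate 1 or 2 or sibling replicate 2 or 3.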

How the data were processed

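RNA of whole larvae was sequenced in 6 libraries, 3 per genotype, made with a stranded mRNA kit per the labels. Each library has a table of gene-level pair counts, deposited without normalization. Per the file headers, featureCounts 1.6.3 counted pairs over exons of Ensembl gene models (GRCz11, release 115) with strand setting 2, with no option for reads with several alignments or overlapping several genes. Trimmomatic 0.38 and STAR 2.7.11 are named in the submitters' processing notes. Symbols came from a table that matched 89.8% of the 32520 IDs, and coordinates are those of the files. The members and lists were chosen with earlier results of these data known.

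The counts were tested with edgeR 4.0.16 (R 4.3.3) on the whole table. Low counts were removed with filterByExpr (minimum count 10), libraries were scaled with TMM factors, genotype was the only term, and p-values were adjusted over the 24248 genes tested. The fit was checked on simulated data, where it recovered the planted changes but made more false calls than its threshold allows, so calls close to 0.05 are uncertain. Log2 changes are mutant minus wild type, and classes were compared by summed CPM with no test. By the rule for named genes, values per library are given for the 3 members of each class with the most counts, those with the largest and smallest change, and any member not called lower. Of each lens list, the text names the most abundant genes and those that changed most in either direction, and 10 regulator symbols fixed by name, which matched 11 genes. Further members named for counts or copy position were chosen after their values were seen. Of 100 list entries 7 matched no symbol, and human-style symbols were matched after dropping the paralogue letter. Results were recomputed under 3 other scalings and 2 other filters, and with DESeq2 1.42.0, limma-voom (limma 3.58.1), robust shrinkage, the replicate number as a block, the summed crygm2d row and each library left out in turn. No library was a copy of another: chi-square per degree of freedom was 4.76 to 6.61 between replicates. Figures were drawn with matplotlib 3.10.9.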

Additional observations from a re-analysis of the deposited data

How the results depend on the processing

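In each of the settings that tested them, all 35 members kept their direction and their call. The number called lower was 34 of 35 with the other scalings, with DESeq2, limma-voom and robust shrinkage, 34 to 35 with a library left out and 36 of 41 with no filter on low counts. The filter of 1 CPM in 3 libraries tested 29 members and called 29 lower and 0 higher, since it removes crygm4. Members could pass it through the siblings alone, as crygm2e and crygm2f did, and for them it favoured a lower mutant level. With the crygm2d rows summed to 1 row, 14 of 15 rows were called lower. With library size only, 4 of the 24 lens regulators were called lower and 12 higher, beside 8 and 9 with TMM factors. Calls over all 24248 tested genes moved the same way, to 6808 lower and 9986 higher, beside 8265 and 8358 with TMM factors. That scaling moved the median of all genes by 0.07 on the log2 scale. The correlations of same-numbered deviations ran from -0.04 to 0.02, so no pairing by replicate number was detected. The labels do not say whether replicates were paired. With the replicate block 34 members were called lower. The mean log2 ratio of the family sum over same-numbered libraries was -3.69, beside -3.67 for the ratio of group means. These values average the libraries differently, so their difference is not an effect of the block. The class sums were not recomputed under limma-voom, which leaves summed CPM as they are. Counts of a few per library limit crygs and the low crygm genes.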
